A study of Rattus norvegicus with 13 samples.

Results

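The Wnt module described here is the set of genes for the ligands, receptors and secreted antagonists of Wnt signalling, with the nuclear factors that read the signal. Its members were every row of the day 3 files with a symbol for a Wnt, Frizzled (Fzd), secreted Frizzled-related protein (Sfrp), Dickkopf (Dkk), R-spondin (Rspo) or Lgr4 to Lgr6. Frzb, Wif1, Lrp5, Lrp6, Axin2, Lef1, Tcf7, Tcf7l1 and Tcf7l2 were added by name. This gave 53 of the 28357 genes listed. By role they were 19 Wnt ligands, 12 Frizzled and Lrp receptors, 7 R-spondins and Lgr receptors, 10 secreted antagonists and 5 nuclear factors with Axin2.

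RNA came from peripheral cornea and limboscleral tissue of wild-type male Lewis rats aged 2 months. All rats, controls included, were from a model of limbal stem cell deficiency, a state marked by loss of the stem cells of the corneal surface and by vessel ingrowth. At day 3 there were 3 libraries from rats given spironolactone, which blocks the mineralocorticoid receptor, by daily subcutaneous injection at 25 mg/kg/day. The other 3 were from rats given vehicle, 90% olive oil with 10% DMSO. For both groups the labels state 3 days of treatment. The labels do not state how the corneas were injured, or whether each library came from its own animal, and the p-values here therefore reflect library-to-library spread alone. The 7 day 7 libraries were not used, because the files give gene IDs that no source here pairs with symbols.

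Wnt proteins are lipid-modified secreted ligands that bring a Frizzled receptor together with Lrp5 or Lrp6. In the canonical branch this stabilises β-catenin, which acts in the nucleus with the TCF/LEF factors, and Axin2 is a widely used target gene that feeds back on the pathway. R-spondins act through the Lgr receptors to keep Frizzled receptors at the surface. Sfrp proteins, Frzb and Wif1 bind Wnts. Dkk1, Dkk2 and Dkk4 act on Lrp5 and Lrp6, whereas Dkk3 is a divergent member counted here with the antagonists by name. On the ocular surface the pathway is known for its part in renewal of limbal stem cells and in the choice between corneal and skin-like epithelium, for which Dkk2 is needed in the mouse.

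Each library held 18.2 to 25.3 M estimated counts. Replicate 3 of each group stood apart from its partners. The chi-square per gene was 23.2 and 22.7 between spironolactone replicate 3 and the others, against 13.2 between spironolactone replicates 1 and 2. It was 18.7 and 18.1 for vehicle replicate 3, against 7.90 between vehicle replicates 1 and 2. Normalised counts are given as CPM, scaled to library size with TMM factors. The 11 retinal photoreceptor markers found summed to 227 CPM in spironolactone replicate 3 and to between 3139 and 5224 CPM in the other 5 libraries. Lens markers summed to 630 CPM in vehicle replicate 3 and to between 76.7 and 131 CPM elsewhere. The labelled tissue was checked with 12 markers listed for corneal and limbal epithelium, of which none was at 0 in any library. Their summed level was 14640 to 17010 CPM with spironolactone and 8410 to 11570 CPM with vehicle, without overlap. All 12 log2 fold changes were positive (median 0.54). Krt5, Krt14 and Krt15 made up 81.1% to 87.2% of each sum. The corneal keratin Krt12 stood at only 7.80 to 12.2 CPM over all libraries, and its groups overlapped. Krt13, listed with the conjunctival markers, stood at 3301 to 8449 CPM. Whether the higher sum with spironolactone came from corneal, limbal or other epithelium was not tested. Of 10 stromal and fibroblast markers 9 were found, with sums of 15830 to 17330 CPM with spironolactone and 16040 to 18110 CPM with vehicle. The 11 skeletal muscle markers found had sums of 132 to 247 CPM with spironolactone and 445 to 1008 CPM with vehicle. In bulk tissue, fewer cells of a type and less RNA per cell cannot be told apart.

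The promoters of 5 members are shown first, for 2 reasons: Axin2 and Tcf7 hold a TCF/LEF core motif, and Wnt4, Wnt6 and Wnt10a are the ligands that differed most consistently between the groups. RefSeq (GRCr8) gave a window of 300 bases, from 250 before to 50 after the start site, for 37 of the 53 members. No entry was found for Dkk2, Dkk3, Dkk4, Fzd2, Fzd3, Fzd6, Lgr5, Lrp5, Lrp6, Rspo2, Rspo4, Sfrp1, Sfrp4, Wnt10b, Wnt5b and Wnt7b. The window of Axin2 is chr10:94398535-94398834 (plus strand), that of Tcf7 chr10:36954230-36954529 (minus), that of Wnt4 chr5:154797200-154797499 (plus), that of Wnt6 chr9:83778302-83778601 (plus) and that of Wnt10a chr9:83798344-83798643 (plus). Capitals mark the TCF/LEF core CTTTGAT, searched on both strands.
Axin2: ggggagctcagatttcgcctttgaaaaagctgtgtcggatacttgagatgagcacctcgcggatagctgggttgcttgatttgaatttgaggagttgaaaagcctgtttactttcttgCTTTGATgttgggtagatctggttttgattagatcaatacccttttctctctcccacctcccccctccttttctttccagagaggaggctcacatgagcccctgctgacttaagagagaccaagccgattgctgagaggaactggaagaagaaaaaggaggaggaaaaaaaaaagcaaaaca
Tcf7: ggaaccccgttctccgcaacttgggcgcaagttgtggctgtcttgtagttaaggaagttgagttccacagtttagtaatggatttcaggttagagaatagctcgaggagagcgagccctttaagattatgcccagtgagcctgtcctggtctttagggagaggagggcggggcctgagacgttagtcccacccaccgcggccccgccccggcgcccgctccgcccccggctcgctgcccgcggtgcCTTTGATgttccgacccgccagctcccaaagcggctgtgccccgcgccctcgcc
Wnt4: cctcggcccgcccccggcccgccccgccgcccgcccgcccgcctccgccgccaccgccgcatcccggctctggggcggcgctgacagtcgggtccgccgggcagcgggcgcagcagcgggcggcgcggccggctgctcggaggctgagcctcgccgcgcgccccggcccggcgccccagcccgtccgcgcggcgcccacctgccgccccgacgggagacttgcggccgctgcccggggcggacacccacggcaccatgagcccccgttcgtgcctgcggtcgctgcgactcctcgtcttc
Wnt6: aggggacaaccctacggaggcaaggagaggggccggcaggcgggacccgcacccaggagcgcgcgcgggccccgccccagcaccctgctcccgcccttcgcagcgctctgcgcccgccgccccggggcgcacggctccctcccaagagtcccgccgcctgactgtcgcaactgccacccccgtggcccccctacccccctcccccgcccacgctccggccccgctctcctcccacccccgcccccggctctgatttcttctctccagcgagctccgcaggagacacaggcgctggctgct
Wnt10a: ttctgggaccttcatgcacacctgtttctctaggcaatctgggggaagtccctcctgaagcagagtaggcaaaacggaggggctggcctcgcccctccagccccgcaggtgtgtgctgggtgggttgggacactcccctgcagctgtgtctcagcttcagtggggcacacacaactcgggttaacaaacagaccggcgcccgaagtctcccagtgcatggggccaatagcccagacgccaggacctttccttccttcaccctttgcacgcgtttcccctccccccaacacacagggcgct

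The TCF/LEF core was present in 2 of the 37 member windows, at position -132 from the start site in Axin2 and -4 in Tcf7. Over all 33469 promoter windows 3.63% held it. The steroid receptor element, GNACA and TGTNC with 3 bases of any kind between them, is shared by the mineralocorticoid and glucocorticoid receptors. It occurred in 0 of the 37 and in 0.439% of all windows. Its half-site AGAACA occurred in 2 of the 37 (Rspo3 and Wnt8b) and in 20.7% of all. The TATA box TATAAA occurred in 1 of the 37 (Dkk1) and in 14.2% of all. Member promoters were GC-rich, with a median GC content of 65.3% against 51.7% over all windows; it was 83.3% in Wnt4, 76.3% in Wnt6, 61.3% in Wnt10a and 45.7% in Axin2. In the RefSeq gene order Wnt6 and Wnt10a are direct neighbours on chromosome 9, with 0 protein-coding genes between them. The pairs Wnt3a with Wnt9a, Wnt9b with Wnt3 and Wnt10b with Wnt1 are direct neighbours in the same way.

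Wnt4 was the main ligand transcript of this tissue, and the secreted antagonists together were more abundant than the ligands in 5 of the 6 libraries. With Dkk3 alone left out, the antagonist sum exceeded the ligand sum only in vehicle replicates 1 and 2. With both Wnt4 and Dkk3 left out, it exceeded the ligand sum in every library. In TPM, the deposited abundance corrected for gene length, Wnt4 stood at 102 ± 9.90 with spironolactone and 78.5 ± 6.02 with vehicle (SD, n = 3 each). It made up 46.2% to 49.2% of the summed ligand TPM with spironolactone and 43.2% to 45.1% with vehicle. Wnt5a, a ligand best known for β-catenin-independent signalling, came next at 28.8 ± 2.22 TPM with spironolactone and 31.8 ± 0.566 TPM with vehicle. It was followed by Wnt16 at 24.3 ± 2.08 TPM with spironolactone and 21.4 ± 1.07 TPM with vehicle. Wnt10a, Wnt7b and Wnt6 lay between 6.80 and 17.8 TPM in the group means, and the other ligands lay below 5 TPM.

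Among receptors, Fzd1, Fzd6 and Lrp6 had the highest levels. Fzd1 averaged 55.5 ± 1.92 TPM with spironolactone and 84.8 ± 26.3 TPM with vehicle, where replicate 3 was far below the others. Fzd6 averaged 58.5 ± 4.10 TPM with spironolactone and 48.0 ± 2.42 TPM with vehicle. Lrp6, a co-receptor of canonical Wnts, averaged 37.9 ± 1.62 TPM with spironolactone and 42.97 ± 2.14 TPM with vehicle. These 3 receptors kept well above Fzd5, Fzd9 and Fzd10, whose group means were below 4 TPM. Dkk3, a divergent Dickkopf, led the antagonists at 99.5 ± 33.5 TPM with spironolactone and 159 ± 6.12 TPM with vehicle. Sfrp1 stood at 51.2 ± 3.276 TPM with spironolactone and 55.4 ± 5.04 TPM with vehicle, and Sfrp2 at 37.7 ± 4.09 TPM with spironolactone and 49.7 ± 6.49 TPM with vehicle. Lgr4 was the main Lgr receptor, at 39.2 ± 2.99 TPM with spironolactone and 38.9 ± 0.774 TPM with vehicle, while Lgr5, a stem cell marker in gut and hair follicle, stood at 1.65 ± 0.119 TPM with spironolactone and 1.52 ± 0.225 TPM with vehicle. Of the R-spondins, Rspo2 was the most abundant at 11.1 ± 1.52 TPM with spironolactone and 13.3 ± 2.54 TPM with vehicle.

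**Figure D1:**
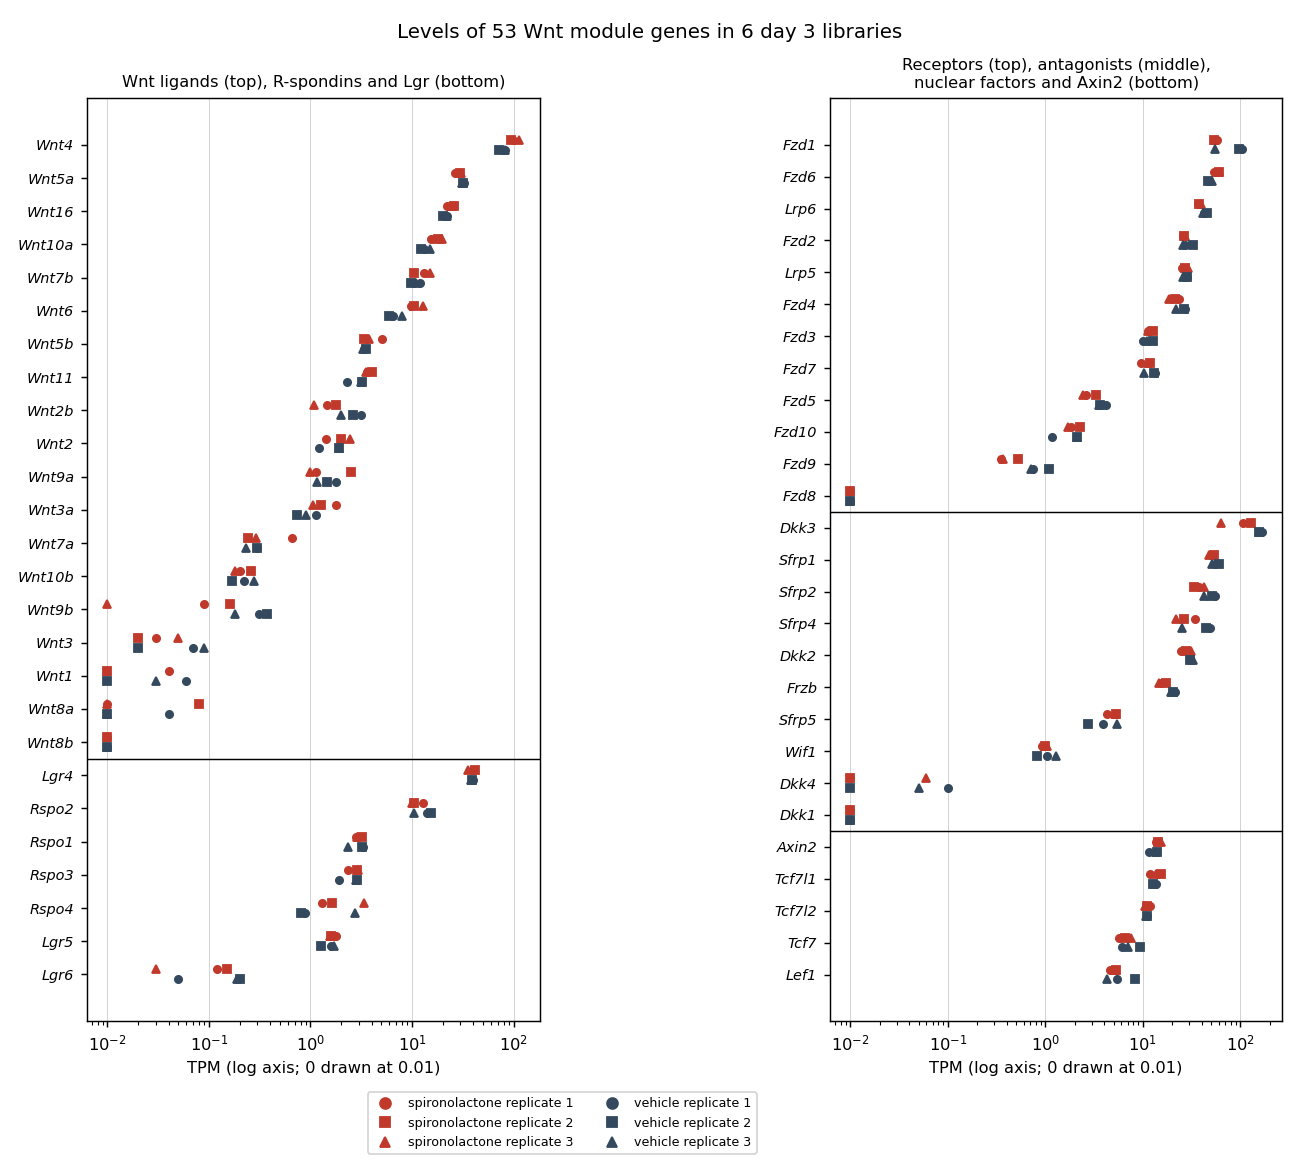
Level of each of the 53 members in TPM on a log axis, with genes grouped by role and ordered by their mean; red symbols are spironolactone libraries and dark symbols vehicle libraries, and a value of 0 is drawn at 0.01. Wnt4 lies above every other ligand in all 6 libraries, and the vehicle libraries of Fzd1 split into a pair near 100 TPM and replicate 3 near the spironolactone values.

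Members that were barely detected are part of the picture. Fzd8, Wnt8b and Dkk1, the founding Dickkopf inhibitor, had 0 counts in all 6 libraries, where 3 counts would be 0.121 to 0.169 CPM. Wnt1, Wnt3, Wnt8a, Wnt10b, Dkk4 and Lgr6 had at most 9 counts in any library. Wnt9a reached 18 counts on a gene model of 609 bases. These 10 members did not pass the filter on low counts, and the other 43 were tested. Intervals and floors of this kind cover counting error only.

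No member passed the test between spironolactone and vehicle, and no gene at all did. Of 14762 genes, edgeR's quasi-likelihood test called 0 (0.0%) at an adjusted p of 0.05, limma-voom also called 0, and 3332 genes (22.6%) had an unadjusted p under 0.05. The smallest adjusted p among members was 0.0657, for Wnt4. Of the 43 tested members 6 were higher and 5 lower at an unadjusted p under 0.05, which is 14.0% and 11.6%, where over all genes the shares were 12.2% and 10.4%. The 3 spironolactone values lay all above the 3 vehicle values for 8 members and all below for 6, which is 18.6% and 14.0%, against 16% and 16.1% of all genes. The members' counts were thus near the background in both directions. The median log2 fold change over the 43 was 0.07 and over all genes -0.01.

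The roles leaned in different directions. Of the 13 tested ligands 10 had positive log2 fold changes (median 0.32), and of the 8 tested antagonists 7 had negative ones (median -0.21). The 11 receptors were positive in 4 and negative in 7 (median -0.10). The R-spondins and Lgr receptors were positive in 5 of 6 (median 0.12), and the nuclear factors with Axin2 in 3 of 5 (median 0.09). Over all genes 48.4% of log2 fold changes were positive. The counts by role were the same with RLE scaling. Without vehicle replicate 3 they were 11 of 14 ligands and 4 of 6 R-spondins and Lgr receptors positive, and 2 of 8 antagonists. Members were chosen with earlier results known, so these counts describe the roles and are not tested.

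**Figure D2:**
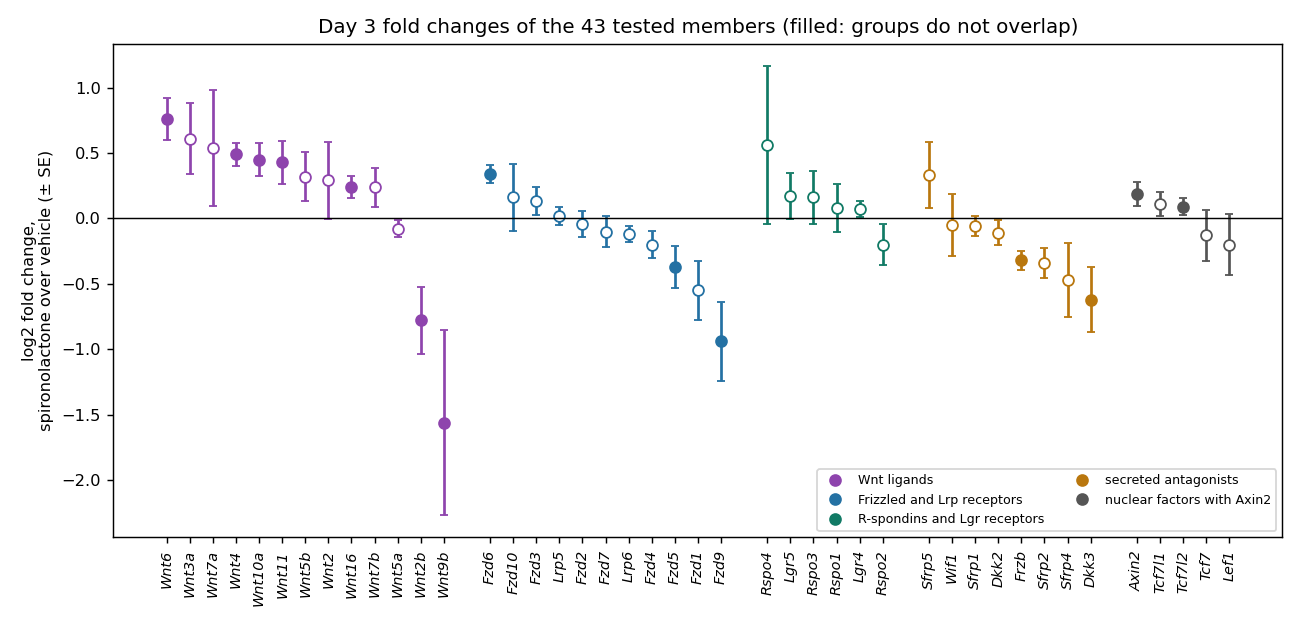
Log2 fold change of spironolactone over vehicle with its standard error for the 43 tested members, grouped by role and ordered within it. Filled points are members whose groups do not overlap; Wnt6 has the highest value at 0.76 and Wnt9b the lowest at -1.56.

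Summed levels separated the groups for ligands and antagonists but not for receptors. Ligand TPM summed to 200, 205 and 230 in the spironolactone libraries and to 182, 166 and 183 in the vehicle libraries. Antagonist TPM summed to 278, 293 and 226 with spironolactone and to 382, 367 and 334 with vehicle. Neither pair of groups overlapped. The ratio of the ligand sum to the antagonist sum was 0.721, 0.700 and 1.02 with spironolactone and 0.476, 0.452 and 0.547 with vehicle. Without Wnt4 and Dkk3, the most abundant member of each role, left out after the values were seen, this ratio was 0.601, 0.670 and 0.714 with spironolactone and 0.463, 0.445 and 0.566 with vehicle, so the groups again did not overlap. Receptor sums were 248, 258 and 258 TPM with spironolactone and 304, 310 and 248 TPM with vehicle, which overlap through vehicle replicate 3. Transcript sums say nothing of protein amount or of binding partners, and summed epithelial markers separated the same libraries.

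**Figure D3:**
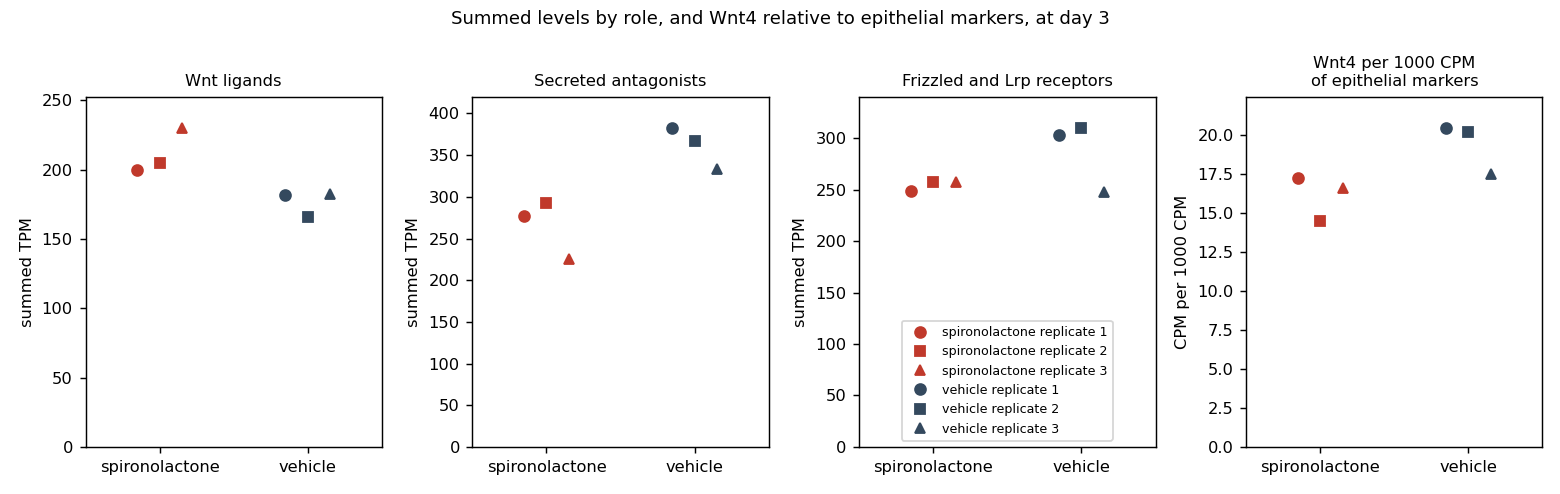
Summed TPM per library of the Wnt ligands, secreted antagonists and Frizzled and Lrp receptors, and Wnt4 per 1000 CPM of all 12 summed epithelial markers, with spironolactone libraries in red and vehicle libraries dark. Ligand sums are 200 to 230 with spironolactone and 166 to 183 with vehicle, antagonist sums are 226 to 293 with spironolactone and 334 to 382 with vehicle, and Wnt4 per 1000 CPM is 14.5 to 17.2 with spironolactone and 17.5 to 20.4 with vehicle.

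The ligands with the most consistent differences were Wnt4, Wnt6 and Wnt10a, for which the lowest spironolactone value exceeded the highest vehicle value. Wnt4, which acts in kidney and gonad development, had 251, 243 and 283 CPM with spironolactone and 182, 170 and 203 CPM with vehicle. Its log2 fold change was 0.49 (SE 0.0872, edgeR adjusted p = 0.0657). Wnt6 had 12.7, 13.3 and 16.7 CPM with spironolactone and 7.97, 7.30 and 9.95 CPM with vehicle (log2 fold change 0.76, SE 0.158, edgeR adjusted p = 0.0747). Wnt10a, which is mutated in human ectodermal dysplasia, had 24.2, 27.95 and 31.4 CPM with spironolactone and 19.4, 18.5 and 23.1 CPM with vehicle (log2 fold change 0.45, SE 0.123, edgeR adjusted p = 0.104). In all 3 genes the highest library of each group was replicate 3. Without replicate 3 of both groups the adjusted p was 0.0151 for Wnt4, 0.0201 for Wnt6 and 0.0513 for Wnt10a, with log2 fold changes of 0.49, 0.77 and 0.46.

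Wnt16 and Wnt11 were also higher without overlap. Wnt16, a ligand known from bone strength, had 22.3, 26.0 and 25.6 CPM with spironolactone and 21.2, 19.5 and 21.7 CPM with vehicle (log2 fold change 0.24, SE 0.0855, edgeR adjusted p = 0.164). Wnt11, known from cell movements in embryos, had 5.97, 6.53 and 5.90 CPM with spironolactone and 3.61, 5.06 and 5.02 CPM with vehicle (log2 fold change 0.43, SE 0.165, edgeR adjusted p = 0.190). The closest libraries of the groups differed by under 1 CPM for both genes.

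Epithelial markers moved with these ligands, so the ligands were also set against them, a choice made after the values were seen. On such a scale any gene that rose less than the marker sum comes out lower, whatever cells its RNA came from. Per 1000 CPM of the summed epithelial markers, Wnt4 stood at 17.2, 14.5 and 16.6 CPM with spironolactone and at 20.4, 20.2 and 17.5 CPM with vehicle. Wnt4 was thus lower in every spironolactone library on this scale, but 3 keratins, Krt5, Krt14 and Krt15, made up 84.2% to 87.2% of the marker sum with spironolactone and 81.1% to 84.6% with vehicle. Per 1000 CPM of the other 9 markers, Wnt4 stood at 109, 106 and 130 with spironolactone and 127, 107 and 114 with vehicle, which overlap. Wnt10a stood at 1.65, 1.67 and 1.84 with spironolactone and 2.18, 2.20 and 1.99 with vehicle on the same scale, and Wnt16 at 1.52, 1.56 and 1.5 with spironolactone and 2.38, 2.32 and 1.88 with vehicle. Both were lower in every spironolactone library against all 12 markers. Against the 9 markers without the keratins, Wnt10a overlapped, at 10.5, 12.2 and 14.4 with spironolactone and 13.6, 11.6 and 13.0 with vehicle. Wnt16 stayed lower, at 9.65, 11.4 and 11.7 with spironolactone and 14.8, 12.3 and 12.2 with vehicle. For Wnt6 the values were 0.866, 0.793 and 0.979 with spironolactone and 0.893, 0.868 and 0.860 with vehicle against all 12 markers, which overlap. Wnt6 also overlapped against the 9 other markers, at 5.48, 5.78 and 7.65 with spironolactone and 5.57, 4.58 and 5.60 with vehicle. Wnt11 overlapped on both scales. The 7 conjunctival and goblet cell markers found had sums of 10300 to 13790 CPM with spironolactone and 5518 to 8910 CPM with vehicle. Most of each sum was the keratin Krt13, at 6061 to 8449 CPM with spironolactone and 3301 to 5522 CPM with vehicle. Krt13, Krt4 and Krt19 were higher without overlap. The other markers found overlapped, with log2 fold changes of -0.54 for Muc5ac, -0.21 for Agr2, 0.15 for Spdef and 0.39 for Tff1. The Muc5ac value is that of a row under another symbol, matched to Muc5ac as a synonym. The part of these cells in the results was not tested.

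Wnt2b and Wnt9b were the ligands that were lower without overlap. Wnt2b, expressed at the rim of the developing eye in chick and mouse, had 1.58, 1.93 and 1.201 CPM with spironolactone and 3.277, 2.73 and 2.15 CPM with vehicle (log2 fold change -0.78, SE 0.255, edgeR adjusted p = 0.143). Wnt9b had 5, 12 and 0 counts with spironolactone and 21, 22 and 13 counts with vehicle (log2 fold change -1.56, SE 0.707, edgeR adjusted p = 0.246). Without spironolactone replicate 3 its log2 fold change was -1.0. Both were transcripts of low abundance. Wnt5a, at 86.8, 96.8 and 101 CPM with spironolactone and 102, 99.8 and 100 CPM with vehicle, overlapped between the groups (log2 fold change -0.08, SE 0.0647). Wnt7a, a ligand tied to Pax6 expression in human limbal cells, was low at 1.35, 0.483 and 0.600 CPM with spironolactone and 0.581, 0.582 and 0.464 CPM with vehicle. A single library, spironolactone replicate 1, set its log2 fold change of 0.54 (SE 0.444), which was -0.01 without it.

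Of the receptors, Fzd6 was higher and Fzd5 and Fzd9 were lower without overlap. Fzd6, a receptor of hair and skin patterning in the mouse, had 149, 166 and 169 CPM with spironolactone and 122, 123 and 136 CPM with vehicle (log2 fold change 0.34, SE 0.072, edgeR adjusted p = 0.0747). Per 1000 CPM of summed epithelial markers it stood at 10.1, 9.92 and 9.94 with spironolactone and 13.6, 14.7 and 11.7 with vehicle. Without the 3 keratins in the sum it overlapped, at 64.2, 72.4 and 77.6 with spironolactone and 85.0, 77.4 and 76.4 with vehicle. Fzd9 had 9, 19 and 11 counts with spironolactone and 25, 34 and 24 with vehicle (log2 fold change -0.94, SE 0.300, edgeR adjusted p = 0.138). Fzd5, a receptor used in eye development, had 3.55, 4.43 and 3.35 CPM with spironolactone and 5.35, 4.70 and 4.68 CPM with vehicle (log2 fold change -0.37, SE 0.160, edgeR adjusted p = 0.224).

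Fzd1 depended on a single library. It had 167, 154 and 161 CPM with spironolactone and 283, 268 and 154 CPM with vehicle, so that vehicle replicate 3 was level with the spironolactone libraries. The log2 fold change was -0.55 (SE 0.227, edgeR adjusted p = 0.224) with all libraries and -0.76 without vehicle replicate 3, when the adjusted p was 0.0125. Sfrp4, named after its values were seen because it split the same way, had 61.2, 46.8 and 39.5 CPM with spironolactone and 83.7, 76.7 and 43.7 CPM with vehicle. Lymphatic endothelial markers summed to 523 to 720 CPM with spironolactone and to 964, 946 and 592 CPM in vehicle replicates 1, 2 and 3. Blood endothelial markers summed to 485 to 683 CPM with spironolactone and to 802, 968 and 630 CPM in the same vehicle libraries. The stromal marker Pdgfra had 543, 564 and 354 CPM there, whereas the whole stromal sum was 16040, 18110 and 16080 CPM. The part of any of these cells in the values of Fzd1 and Sfrp4 was not tested. Fzd7, a limbal niche receptor in human tissue, had 17.4, 21.1 and 20.4 CPM with spironolactone and 22.8, 22.5 and 18.04 CPM with vehicle, which overlap (log2 fold change -0.10, SE 0.121). The co-receptor Lrp6 had 123, 125 and 134 CPM with spironolactone and 137, 145 and 134 CPM with vehicle (log2 fold change -0.12, SE 0.0586, edgeR adjusted p = 0.268).

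**Figure D4:**
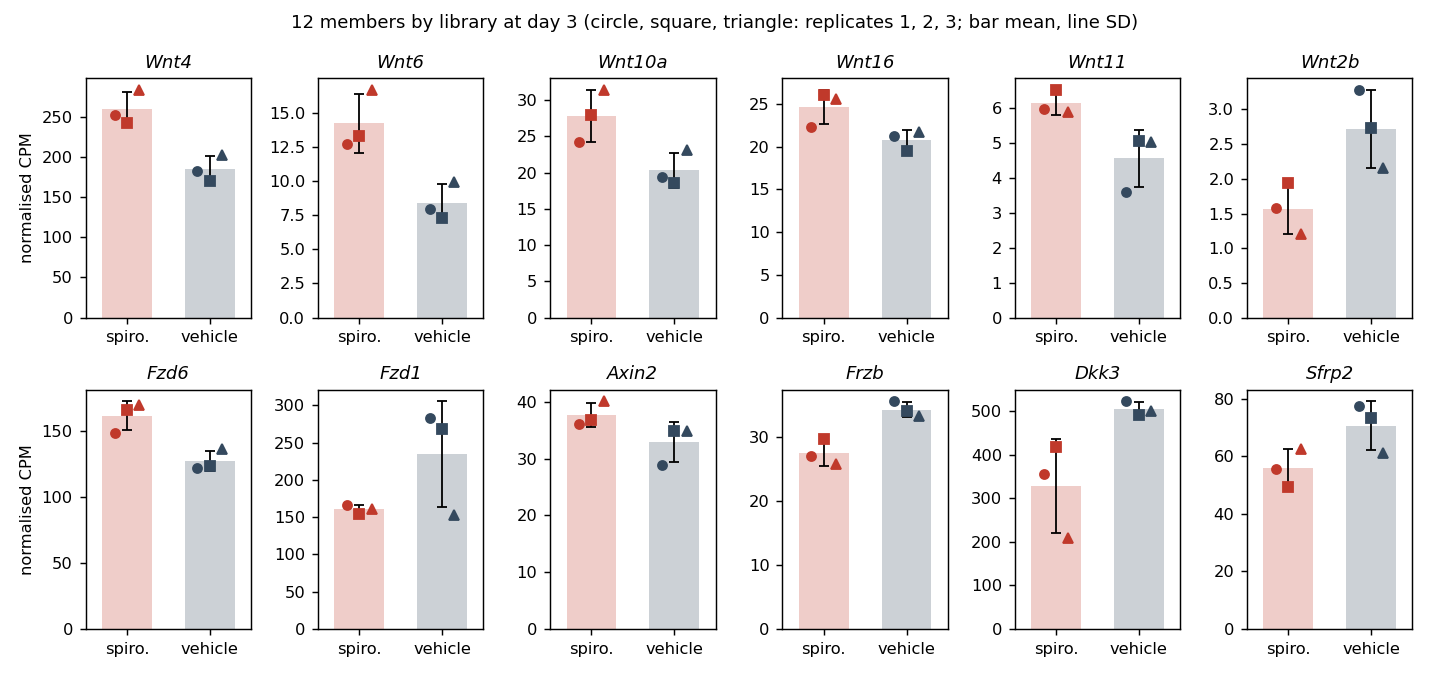
Normalised CPM of 12 members in each day 3 library, with a bar for the group mean and a line for the SD (n = 3); circles, squares and triangles are replicates 1, 2 and 3. Wnt4, Wnt6, Wnt10a, Wnt16, Wnt11, Fzd6 and Axin2 lie higher in every spironolactone library, Wnt2b, Frzb and Dkk3 lie lower, and Fzd1 and Sfrp2 overlap through vehicle replicate 3.

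Frzb was the antagonist with the tightest difference, and Dkk3 the one with the largest over all 6 libraries. Frzb, a secreted Wnt-binding protein first known from cartilage, had 27.1, 29.8 and 25.8 CPM with spironolactone and 35.7, 34.1 and 33.3 CPM with vehicle (log2 fold change -0.32, SE 0.0734, edgeR adjusted p = 0.0801). Against the summed stromal markers, a scale chosen after the values were seen, it stood at 1.56, 1.88 and 1.63 per 1000 CPM with spironolactone. With vehicle it stood at 2.22, 1.88 and 2.07, so the groups met at 1.88. On this scale Dkk3 stayed lower without overlap, at 20.6, 26.4 and 13.2 with spironolactone and 32.6, 27.1 and 31.2 with vehicle. Wnt2b also stayed lower without overlap, while Sfrp2 and Fzd1 overlapped. Dkk3 had 357, 419 and 209 CPM with spironolactone and 524, 491 and 502 CPM with vehicle (log2 fold change -0.62, SE 0.246, edgeR adjusted p = 0.212). Dkk3 is also expressed in the retina of the mouse, and the 6 libraries stood in the same order for Dkk3 as for the summed retinal markers, which were 3139, 3987 and 227 CPM with spironolactone and 5224, 4697 and 4832 CPM with vehicle. The part of retinal RNA in the Dkk3 values was not tested. Without spironolactone replicate 3 the log2 fold change of Dkk3 was -0.38 (edgeR adjusted p = 0.0905), and the remaining values were still below those of vehicle. In the same fit Sfrp2 stood at -0.43, so the rank of Dkk3 rested on that library. The antagonist sum without Dkk3 was 170, 165 and 163 TPM with spironolactone and 216, 212 and 178 TPM with vehicle.

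Sfrp2 and Sfrp1 overlapped between the groups. Sfrp2, a stromal Wnt modulator, had 55.7, 49.4 and 62.6 CPM with spironolactone and 77.4, 73.3 and 61.1 CPM with vehicle, overlapping through vehicle replicate 3 (log2 fold change -0.34, SE 0.117, edgeR adjusted p = 0.161). Without replicate 3 of both groups it was -0.52 with an adjusted p of 0.0222. Sfrp1 had 135, 134 and 121.5 CPM with spironolactone and 133, 148 and 125 CPM with vehicle (log2 fold change -0.06, SE 0.0771). For Dkk2, the corneal fate gene of the mouse, the values were 56.9, 62.6 and 72.2 CPM with spironolactone and 66.3, 66.5 and 73.6 CPM with vehicle (log2 fold change -0.11, SE 0.0945). Wif1 was low, at 1.30 to 1.501 CPM with spironolactone and 1.12 to 1.77 CPM with vehicle (log2 fold change -0.05, SE 0.237). Sfrp5 was the only tested antagonist with a positive log2 fold change, 0.33 (SE 0.253), and its groups overlapped.

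The readout genes of the canonical branch differed little in CPM, and the direction for Axin2 depended on the scale. Axin2 had 36.1, 36.8 and 40.1 CPM with spironolactone and 28.9, 34.9 and 34.9 CPM with vehicle, without overlap but with a gap near 1 CPM (log2 fold change 0.19, SE 0.0919, edgeR adjusted p = 0.262). Per 1000 CPM of summed epithelial markers it was 2.46, 2.20 and 2.36 with spironolactone and 3.24, 4.15 and 3.02 with vehicle. Without the 3 keratins it was 15.6, 16.1 and 18.4 with spironolactone and 20.2, 21.9 and 19.7 with vehicle. Axin2 was thus lower in every spironolactone library on both of these scales. Both marker sums were themselves higher with spironolactone, so any gene that rose less than the markers comes out lower. The 9 markers other than the keratins summed to 2179 to 2313 CPM with spironolactone and 1431 to 1777 CPM with vehicle. Whether the Axin2 RNA came from epithelium was not tested. Lef1, a nuclear partner of β-catenin that is also its target, had 7.55, 8.58 and 8.55 CPM with spironolactone and 8.42, 13.1 and 6.87 CPM with vehicle (log2 fold change -0.20, SE 0.236). Tcf7 had 5.30, 6.08 and 7.10 CPM with spironolactone and 5.48, 8.38 and 6.45 CPM with vehicle (log2 fold change -0.13, SE 0.192). Both overlapped, and the highest value of each was vehicle replicate 2. The log2 fold change was 0.11 for Tcf7l1 (SE 0.0928) and 0.09 for Tcf7l2 (SE 0.0655), whose groups did not overlap.

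R-spondins and Lgr receptors gave no difference beyond the spread between libraries. Lgr4 had 91.7, 93.5 and 82.1 CPM with spironolactone and 85.6, 85.2 and 84.1 CPM with vehicle (log2 fold change 0.07, SE 0.0611). Lgr5 had 3.61, 3.22 and 3.15 CPM with spironolactone and 3.07, 2.46 and 3.33 CPM with vehicle (log2 fold change 0.17, SE 0.174). For Rspo2 the log2 fold change was -0.20 (SE 0.158), and for Rspo1 0.08 (SE 0.184). Lgr6 had 1 to 8 counts per library and was not tested.

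DESeq2 gave calls where edgeR gave none. It called 6 of the 42 members with an adjusted p, 4 higher and 2 lower, which is 9.52% and 4.76%. Over 14425 genes it called 9.25%, 5.81% higher and 3.44% lower. The higher ones were Wnt4 (adjusted p = 1.26e-04), Fzd6 (0.00235), Wnt6 (0.00329) and Wnt10a (0.032), and the lower ones were Frzb (0.0293) and Dkk3 (0.0299). Without vehicle replicate 3, edgeR called 4 of 44 members, Wnt4, Wnt6 and Fzd6 higher and Fzd1 lower, or 9.09% against 5.27% of all genes (3.72% higher and 1.55% lower). Without replicate 3 of both groups it called these 4 and Sfrp2, or 11.4% against 7.02% (4.41% higher and 2.61% lower). With no filter on low counts it called Wnt4 (adjusted p = 0.0487) and 0.787% of all genes. Without vehicle replicate 1 or without spironolactone replicate 3 it called 0 members, with 0.270% and 0.0134% of all genes.

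The wider pathway was read from 6 lists with 84 genes, of which 82 were found, Ccn4 and Ccn5 under the older symbols Wisp1 and Wisp2. Of the 76 tested, 0 passed the edgeR test (0.0% of all genes did). At an unadjusted p under 0.05, 17 were higher and 10 lower (22.4% and 13.2%, against 12.2% and 10.4% of all genes), with a median log2 fold change of 0.03 over the 76. DESeq2 called 13 higher and 1 lower (17.1% and 1.32%, against 5.81% and 3.44% of all genes). Of the 12 corneal and limbal epithelial markers, 10 were higher at an unadjusted edgeR p under 0.05. The part of epithelial RNA in the pathway counts was not tested. The list of ligand export and matrix genes was positive in 8 of 11 tested members, against 48.4% of all genes. Its median log2 fold change was only 0.05, and Gpc3 and Gpc4, counted as positive, stood at 0.0. Sdc1, an epithelial heparan sulphate proteoglycan, had 787, 891 and 908 CPM with spironolactone and 555, 547 and 650 CPM with vehicle (log2 fold change 0.56, SE 0.0904, edgeR adjusted p = 0.0649). Wls, which carries Wnts to the cell surface, had 321, 325 and 332 CPM with spironolactone and 283, 280 and 291 CPM with vehicle (log2 fold change 0.19, SE 0.046, edgeR adjusted p = 0.0833).

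Planar polarity genes, of the β-catenin-independent branch, were positive in 7 of 12 (median 0.11). Vangl1 had 91.9, 93.1 and 96.3 CPM with spironolactone and 75.0, 73.2 and 80.7 CPM with vehicle (log2 fold change 0.30, edgeR adjusted p = 0.0683), and the cadherin gene Celsr1 had a log2 fold change of 0.55 (edgeR adjusted p = 0.0736). Cytoplasmic transduction genes were positive in 12 of 17 (median 0.08). The smallest edgeR p-values were those of the destruction complex genes Amer1, at 0.37 (edgeR adjusted p = 0.0703), and Gsk3b, at 0.19 (0.104). The other surface receptors and regulators were negative in 8 of 10: Ror1, a Wnt5a receptor, had a log2 fold change of -0.35 (edgeR adjusted p = 0.112), whereas Rnf43, which removes Frizzled from the surface, had 0.69 (0.0953). Nuclear cofactors split 7 to 6, with the co-repressor gene Tle3 at 0.19 and the β-catenin cofactor gene Pygo1 at -0.29. Known target genes were positive in 6 and negative in 7 of 13, with a median of -0.05; Cd44 stood at 0.27 (edgeR adjusted p = 0.121) and Tbx3 at -0.35 (0.169).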

How the data were processed

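Per the labels, RNA libraries came from peripheral cornea and limboscleral tissue. The builds rn6 and Rnor_6.0 and the tools RSEM 1.2.28, STAR 2.5.3a, edgeR 3.28.0, DESeq2 1.26.0, Picard, DRAGEN, fastp and FastQC are listed in the submitters' processing notes, with no roles. The day 3 files hold, per the file headers, expected counts and TPM values per gene as the authors deposited them. Strandedness of the counting was not given in the sources used here, and ligands or receptors of like sequence may share reads.

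Expected counts were rounded, and 1 row that names no gene (0.120% to 0.181% of counts) was left out. Genes were kept by edgeR's filter with a minimum count of 10, scaled by TMM and tested with edgeR 4.0.16 in R 4.3.3 (robust quasi-likelihood, Benjamini-Hochberg adjustment over all genes, threshold 0.05). The standard error is the log2 fold change over the square root of F. Alternatives were RLE factors, other filters, DESeq2 1.42.0, limma 3.58.1 (voom, and log2(TPM + 0.5)), a replicate block and libraries left out. The test scripts were tested on simulated data. Named genes are members at an unadjusted p under 0.05 without overlap, the 3 most abundant of each role, fixed ocular surface genes, and 2 per pathway list; others named were chosen after their values were seen. The members and lists were chosen with earlier results of these data known.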

Additional observations from a re-analysis of the deposited data

How the results depend on the processing

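Calls depended on the tool and on single libraries. The 0 genes called by edgeR stayed 0 with RLE factors, a filter of 1 CPM in 3 libraries, limma-voom, limma on log2(TPM + 0.5) and the replicate block. They were 148 with no filter on low counts, 1334 with DESeq2 and 1040 without replicate 3 of both groups. Members called were 1, 6 and 5 under the same settings (Wnt4 without the filter), and other pathway genes 1, 14 and 6. With each library left out in turn, all genes called ran from 0 to 781, members from 0 to 4 and other pathway genes from 0 to 5, highest without vehicle replicate 3; 40 genes were called without vehicle replicate 1 and 2 without spironolactone replicate 3.

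Same-numbered libraries did not deviate together across genes (r = 0.0898, -0.0845 and 0.0486 for numbers 1, 2 and 3), so the replicate block, which called 0 members, is given here only. Over all settings, the sign of the log2 fold change turned for 10 of the 43 tested members. Without replicate 3 of both groups it was -0.03 for Rspo1, 0.08 for Wif1 and -0.06 for Lrp5. With each library left out in turn it ran from -0.05 (without vehicle replicate 3) to 0.16 for Rspo1 and from -0.18 to 0.15 (without vehicle replicate 3) for Wif1. It ran from -0.37 to 0.12 for Lef1, from -0.09 to 0.02 for Sfrp1 and from -0.26 to 0.06 for Tcf7, highest without vehicle replicate 2 in each, and from -0.01 (without spironolactone replicate 1) to 0.83 for Wnt7a. For Fzd10 it was -0.07 and for Rspo3 just under 0 without vehicle replicate 1, for Fzd2 0.08 without vehicle replicate 2, and for Lrp5 -0.04 without spironolactone replicate 3 and on the TPM scale. The cause was not tested. At 18.2 to 25.3 M counts, members under about 1 CPM rest on few counts.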

Other observations

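A planar polarity gene and an R-spondin varied with single libraries more than with treatment. Celsr3, a cadherin gene of axon guidance, had 6.93, 10.6 and 0.550 CPM with spironolactone and 11.2, 13.3 and 12.7 CPM with vehicle, with its lowest value in the library whose retinal markers summed to 227 CPM; the part of retinal RNA in this value was not tested. Rspo4, known from nail development, had 0.451, 0.564 and 1.201 CPM with spironolactone and 0.290, 0.269 and 0.927 CPM with vehicle, highest in replicate 3 of each group. Both genes were picked after their values were seen.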
